A study of Homo sapiens with 8 samples.

Results

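Aminoacyl-tRNA synthetases are the enzymes that join each amino acid to its matching tRNA, the step that fixes the genetic code. The members described here are 35 genes, 19 for the cytosolic enzymes and 16 for the mitochondrial enzymes, out of 18132 genes that had at least 1 probe set with a single gene symbol. They were matched by gene symbol in the platform annotation, a rule that uses no measured value, although the family was picked with earlier results of these data known. All 35 were on the array, with 88 probe sets, and all 35 lay above the floor for low signal (log2 6.11, the 50th percentile of all probe set values) in every group used.

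The study asked which transcripts change in hepatocellular carcinoma lines exposed to CU27, a compound known here only by its code name. The groups used were Huh7.5.1 cells kept with 10 μM CU27, Huh7.5.1 cells kept with the solvent DMSO and Hep3B cells kept with DMSO, each for 48 h and each with 2 biological replicates, 1 array per replicate. Hep3B and Huh7.5.1 are established human liver cancer lines, and the labels give DMEM or MEM with serum as medium without saying which line was grown in which, so line and medium cannot be told apart. The columns labelled Hep3B CU27 could be computed, at each of 49395 probe sets and to within 1e-06, as linear functions of those labelled Hep3B DMSO. They were not used, and the response of the synthetases to CU27 in Hep3B cells is not reported.

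Signals were log2 values of single arrays, and replicate arrays correlated at 0.991 in Huh7.5.1 CU27, 0.993 in Huh7.5.1 DMSO and 0.994 in Hep3B DMSO over probe sets. The ACTB control gives a gauge of RNA integrity, its 3′ signal minus its 5′ signal, which is larger when fewer transcripts are full length. It came to 0.98 and 1.21 in CU27 cells, 0.94 and 1.06 in Huh7.5.1 cells with DMSO, and 2.28 and 1.60 in Hep3B cells. The Hep3B DMSO columns held identical values, with no tolerance, at 1086 probe sets, and 0 of the probe sets used for the members were among them. Hepatocyte genes were present, with the albumin gene ALB at 14.36 and 14.27 in CU27 cells, 14.39 and 14.44 in Huh7.5.1 cells with DMSO and 14.11 and 14.26 in Hep3B cells. Of 8 leukocyte, fibroblast and endothelial markers, 6 lay below the floor in every group.

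In human cells the cytosol and the mitochondria use largely separate sets of synthetases, all encoded in the nucleus. GARS1 and KARS1 supply both compartments from a single gene, EPRS1 carries the glutamate and the proline activity in a single protein, and FARSA and FARSB are the subunits of the cytosolic phenylalanine enzyme. Several cytosolic enzymes, among them EPRS1, IARS1, LARS1, MARS1, QARS1, RARS1 and KARS1, sit together in the multisynthetase complex. Uncharged tRNA activates the kinase GCN2 (EIF2AK4), which raises translation of the transcription factor ATF4, and many cytosolic synthetase genes are known ATF4 targets, while mitochondrial synthetases are for the most part not described as such.

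CU27 lowered 10 of the 19 cytosolic synthetases in Huh7.5.1 cells and raised 1, QARS1. Of the 16 mitochondrial synthetases it lowered 2, MARS2 and NARS2, and raised 0. For comparison, 12.1% of the 11383 genes tested were lower and 12.6% were higher by the same test (limma, Benjamini-Hochberg adjusted p threshold 0.05), 24.7% in all. The median log2 difference, CU27 minus DMSO, was -0.33 over the cytosolic genes, -0.13 over the mitochondrial genes and 0.02 over all genes tested. Both CU27 arrays lay below both DMSO arrays for 13 cytosolic and 8 mitochondrial genes, a pattern found for 31.0% of all genes tested. Both lay above for 3 and 2, found for 32.9%, so that 63.8% of all genes had groups that did not overlap.

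**Figure D1:**
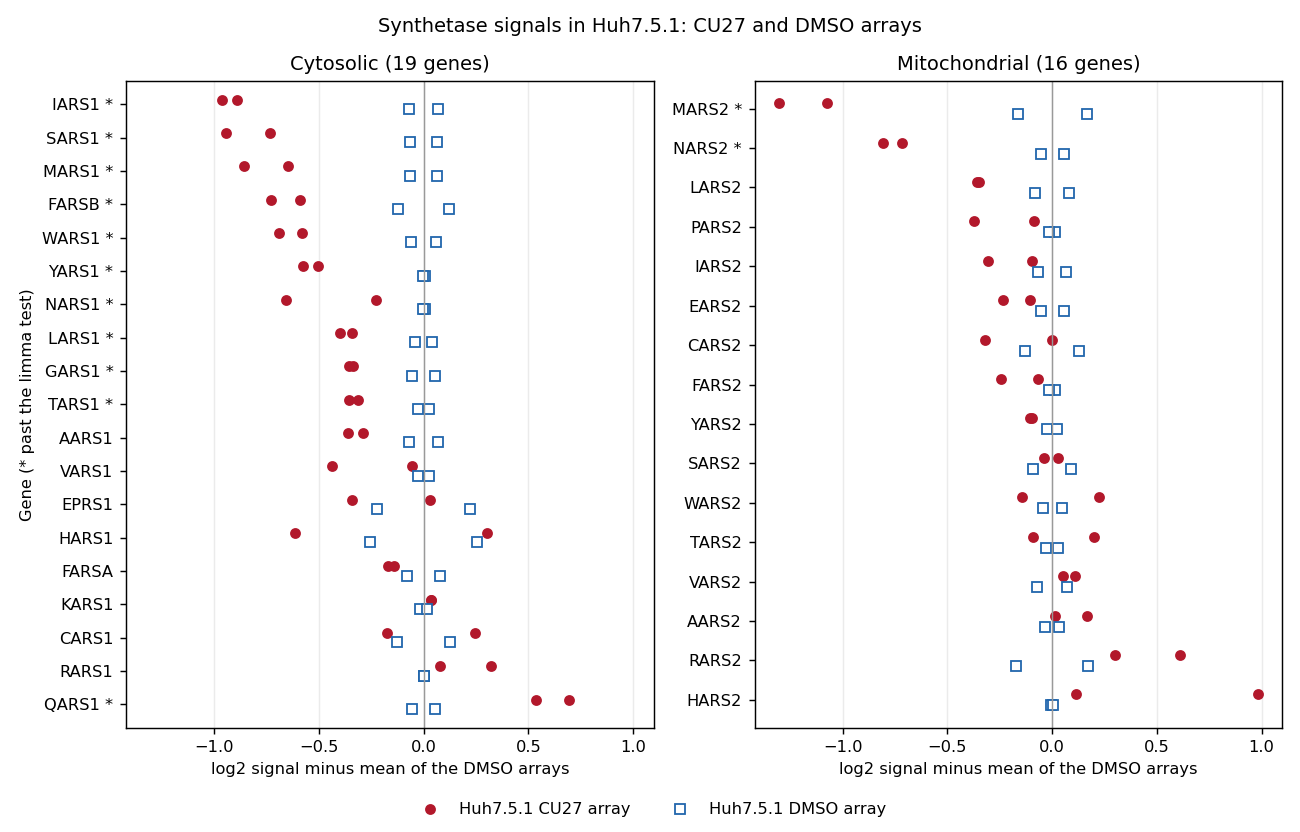
Log2 signal of each Huh7.5.1 array minus the mean of the 2 DMSO arrays (x axis, log2 units), for each cytosolic (left) and mitochondrial (right) synthetase gene; filled circles are CU27 arrays, open squares are DMSO arrays, and a star marks genes past the limma test. IARS1, SARS1, MARS1, FARSB, WARS1 and YARS1 have both CU27 arrays well below both DMSO arrays, QARS1 has both above, and among mitochondrial genes MARS2 and NARS2 lie farthest to the left while RARS2 and a single CU27 array of HARS2 lie farthest to the right.

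The cytosolic isoleucine enzyme IARS1 showed the largest cytosolic fall. Its signal was 11.45 and 11.38 in CU27 cells, against 12.27 and 12.41 in DMSO cells. On the deposited scale the CU27 arrays were both about as low as the Hep3B DMSO arrays, which read 11.42 and 11.40. That match depends on the scaling between lines. The IARS1 difference, Huh7.5.1 minus Hep3B in DMSO, was 0.93 as deposited and 0.51 with each array centred on its median. IARS1 fell by 0.93 ± 0.09 on the log2 scale (limma adjusted p = 0.000658, with the standard error after ± here and below and 2 arrays in each group), and its 4 probe sets ran from -0.95 to -0.89.

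SARS1, the serine enzyme, and MARS1, the methionine enzyme of the multisynthetase complex, were next. SARS1 read 9.65 and 9.86 in CU27 cells, against 10.53 and 10.66 in DMSO cells, a fall by 0.84 ± 0.13 (limma adjusted p = 0.00286), by its single probe set. MARS1 read 10.13 and 10.34 in CU27 cells, against 10.92 and 11.05 in DMSO cells, a fall by 0.75 ± 0.13 (limma adjusted p = 0.00544). In both genes the 2 groups were separated by more than the distance between replicates. All 5 probe sets of MARS1 were lower with CU27, from -0.96 to -0.67.

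FARSB, WARS1 and YARS1 fell by somewhat less. FARSB, which encodes the β subunit of the phenylalanine enzyme, read 9.64 and 9.78 in CU27 cells, against 10.25 and 10.49 in DMSO cells (difference -0.66 ± 0.14, limma adjusted p = 0.0100). Its partner FARSA, the α subunit, read 8.84 and 8.81 in CU27 cells and 9.06 and 8.90 in DMSO cells (difference -0.15 ± 0.15, limma adjusted p = 0.527). The arrays of both subunits did not overlap between groups, and the difference between the subunits was not tested.

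WARS1, the tryptophan enzyme, is also known as an interferon-inducible gene. It read 9.36 and 9.47 in CU27 cells, against 9.99 and 10.11 in DMSO cells, with a difference of -0.63 ± 0.13 (limma adjusted p = 0.0102). On a list of 8 interferon genes, 7 had a probe set and 5 were tested. In the same arrays 4 of these 5 rose, against 12.6% of all genes tested. The untested genes with a probe set lay below the floor in every group. ISG15, a ubiquitin-like protein, was at 10.59 and 10.72 in CU27 cells and 8.64 and 8.35 in DMSO cells. The transcription factor IRF1 was at 9.24 and 9.30 in CU27 cells and 8.48 and 8.27 in DMSO cells. TAP1, which carries peptides into the endoplasmic reticulum, and PSMB9, a proteasome subunit, rose too. Both lay below the floor in DMSO cells of either line, so they were tested only through their signal with CU27, which inflates the count. YARS1, the tyrosine enzyme, read 10.38 and 10.45 in CU27 cells, against 10.96 and 10.95 in DMSO cells (difference -0.55 ± 0.12, limma adjusted p = 0.0124).

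NARS1, LARS1, GARS1 and TARS1, the enzymes for asparagine, leucine, glycine and threonine, passed the test by a smaller margin, with falls of 1.26-fold to 1.35-fold. NARS1 read 12.31 and 11.88 in CU27 cells, against 12.54 and 12.53 in DMSO cells (difference -0.43 ± 0.13, limma adjusted p = 0.0429). LARS1 read 10.59 and 10.65 in CU27 cells, against 10.95 and 11.03 in DMSO cells (difference -0.37 ± 0.11, limma adjusted p = 0.0399). The CU27 arrays of LARS1 agreed closely with each other, while those of NARS1 were apart by more than its DMSO arrays. GARS1 read 12.13 and 12.15 in CU27 cells, against 12.43 and 12.54 in DMSO cells (difference -0.35 ± 0.09, limma adjusted p = 0.0200), and TARS1 read 11.59 and 11.63 in CU27 cells, against 11.92 and 11.97 in DMSO cells (difference -0.33 ± 0.10, limma adjusted p = 0.0359). In each of the 4 genes both CU27 arrays were below both DMSO arrays, and every probe set above the floor was lower with CU27. These calls were the least stable, and of 15 alternatives the call was lost under 9 for NARS1, 9 for LARS1, 8 for TARS1 and 4 for GARS1, with adjusted p up to 0.213.

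QARS1, the glutamine enzyme, was the only member past the test in the upward direction. It read 10.75 and 10.91 in CU27 cells, against 10.27 and 10.16 in DMSO cells, a rise of 0.61 ± 0.12 or 1.53-fold (limma adjusted p = 0.00776). Its other probe set read 9.20 and 8.74 in CU27 cells, against 8.55 and 8.48 in DMSO cells, and did not pass when every probe set was tested on its own (difference 0.46, limma adjusted p = 0.173). Humans have no separate mitochondrial glutamine synthetase, and the mitochondria make glutaminyl-tRNA by another route, through EARS2 and the amidotransferase subunits GATB, GATC and QRSL1.

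Of the other cytosolic genes, AARS1, the alanine enzyme, came closest to the threshold. It read 10.72 and 10.65 in CU27 cells, against 10.94 and 11.08 in DMSO cells (difference -0.33 ± 0.11, limma adjusted p = 0.0666), with both CU27 arrays below both DMSO arrays. VARS1 (valine), EPRS1, HARS1 (histidine), KARS1 (lysine), CARS1 (cysteine) and RARS1 (arginine) had differences from -0.25 for VARS1 to 0.20 for RARS1 and did not pass. EPRS1 read 11.33 and 10.96 in CU27 cells and 11.52 and 11.08 in DMSO cells, so its replicates were farther apart than its group means. KARS1 had the tightest replicates, with 12.29 and 12.29 in CU27 cells and 12.24 and 12.27 in DMSO cells.

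The 7 members of the multisynthetase complex did not move one way. IARS1, LARS1 and MARS1 fell, QARS1 rose, and EPRS1, RARS1 and KARS1 had differences of -0.16 ± 0.17, 0.20 ± 0.12 and 0.03 ± 0.08 that did not pass. The median over the 7 genes was -0.16. AIMP1, a scaffold protein of the complex, read 10.24 and 10.04 in CU27 cells and 10.05 and 9.91 in DMSO cells and did not pass the test (difference 0.16 ± 0.14, limma adjusted p = 0.471).

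Among the cytosolic synthetases, a list of 13 known ATF4 targets (AARS1, CARS1, EPRS1, GARS1, IARS1, LARS1, MARS1, NARS1, SARS1, TARS1, VARS1, WARS1 and YARS1) held 9 of the 10 that fell and 0 that rose, with a median of -0.37. Of the 6 others (FARSA, FARSB, HARS1, KARS1, QARS1 and RARS1) FARSB fell and QARS1 rose, with a median of -0.06. Of all genes tested, 12.1% were lower and 12.6% were higher. The list rests on general knowledge and was drawn up with earlier results of these data known. Whether the listed and the other genes differ was not tested. The ATF4 transcript itself read 12.88 and 13.02 in CU27 cells and 12.91 and 12.93 in DMSO cells (difference 0.03 ± 0.09, limma adjusted p = 0.864). ATF4 is known to be controlled mainly through its translation, which arrays do not measure.

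Of 9 genes of the amino acid stress route, which comprise EIF2AK4, its activator GCN1, ATF4 and 6 genes that ATF4 is known to act on, 4 fell with CU27 and 0 rose, with a median of -0.23, against 12.1% lower and 12.6% higher of all genes tested. Those that fell were the transcription factor CEBPG (10.56 and 10.27 in CU27 cells, 11.41 and 11.57 in DMSO cells, limma adjusted p = 0.00174), the stress sensor SESN2, the glutathione-degrading enzyme CHAC1 and the pseudokinase TRIB3, with differences of -1.07 ± 0.14, -1.18 ± 0.22, -0.86 ± 0.17 and -0.84 ± 0.18. ASNS, the asparagine synthetase, is a classic ATF4 target too, yet it read 13.21 and 12.95 in CU27 cells and 13.19 and 13.43 in DMSO cells and did not pass (difference -0.23 ± 0.14, limma adjusted p = 0.269). DDIT3, another of the genes that ATF4 is known to act on, read 8.02 and 8.53 in CU27 cells and 7.93 and 8.62 in DMSO cells. It did not pass (difference -0.00 ± 0.26, limma adjusted p = 0.998). EIF2AK4 had a difference of -0.07 ± 0.15 and did not pass.

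The CARE element is the sequence to which ATF4 binds together with a C/EBP partner, and promoters were searched for it because many of the members are known ATF4 targets. RefSeq promoter windows (GRCh38.p14, mostly the sequence just before the start site) matched 30 of the 35 members, 16 cytosolic and 14 mitochondrial. The letters TGATGNAA, where N is any base, were found on either strand in 7 of the 16 cytosolic genes. They were in 1 of the 14 mitochondrial genes, YARS2, and in 3.63% of 34796 different windows of all genes. A gene was counted if any of its windows held the letters, so the counts of genes and the share of windows are unlike measures. The matches are shown with 10 bases on each side, 5′ to 3′ in the direction of the gene, with the 8 matched bases in capitals. Capitals that read TTGCATCA or TTTCATCA are matches on the opposite strand.
IARS1, chr9:92293693-92293720, minus strand: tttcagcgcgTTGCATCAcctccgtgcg
MARS1, chr12:57488054-57488081, plus strand: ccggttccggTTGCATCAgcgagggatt
NARS1, chr18:57621805-57621832, minus strand: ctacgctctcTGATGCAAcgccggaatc
GARS1, chr7:30594835-30594862, plus strand: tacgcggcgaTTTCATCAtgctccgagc
TARS1, chr5:33440957-33440984, plus strand: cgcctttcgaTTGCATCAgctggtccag
AARS1, chr16:70289676-70289703, minus strand: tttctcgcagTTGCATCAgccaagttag
CARS1, chr11:3057408-3057435, minus strand: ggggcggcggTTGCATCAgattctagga
YARS2, chr12:32756077-32756104, minus strand: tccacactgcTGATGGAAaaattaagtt

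The match lay close to the start site in IARS1, MARS1, NARS1, GARS1, TARS1 and CARS1, counting the start site as 1 and the base before it as -1, with the first base of the match at position -13 in IARS1, -4 in MARS1 and -33 in GARS1 and downstream of the start site in NARS1 and TARS1. In AARS1 and YARS2 it lay farther upstream, at -187 and -197. Of the 7 cytosolic genes with the letters, IARS1, MARS1, NARS1, GARS1 and TARS1 fell with CU27, while AARS1 and CARS1 did not pass. Of the 9 cytosolic genes with a window but without the letters, FARSB, SARS1 and WARS1 fell and QARS1 rose. The medians were -0.35 for the genes with the letters and -0.15 for those without. Of all genes tested, 12.1% were lower and 12.6% were higher. The calls of NARS1, GARS1 and TARS1 were among the least stable, as given above. Whether genes with and without the letters differ was not tested. For GARS1, TARS1 and CARS1 the letters were in 1 of the 2 windows of the gene.

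A further stretch is shown for WARS1 because 4 of the listed interferon genes rose while it fell. The core of the interferon-stimulated response element, searched on both strands, was in 1 of the 2 windows of WARS1 and in both windows of EARS2, against 3.57% of all windows. In WARS1 it begins at position -55 of the downstream start site and is shown in capitals.
WARS1, chr14:100375383-100375412, minus strand: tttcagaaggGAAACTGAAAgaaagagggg

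The 2 mitochondrial genes that fell were those for methionine and asparagine. MARS2 read 7.19 and 7.42 in CU27 cells, against 8.33 and 8.66 in DMSO cells, a fall by 1.19 ± 0.17 or 2.29-fold (limma adjusted p = 0.00219), and its other 2 probe sets were at -1.11 and -0.97. NARS2 read 7.78 and 7.69 in CU27 cells, against 8.55 and 8.44 in DMSO cells, a fall by 0.76 ± 0.15 (limma adjusted p = 0.00781), by its single probe set. The fall of MARS2 was the largest of any synthetase and the only one past 2-fold. For both amino acids the cytosolic enzyme had fallen as well.

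Of the remaining 14 mitochondrial genes, 0 passed with CU27. RARS2, for arginine, came closest, with 9.94 and 10.25 in CU27 cells against 9.47 and 9.81 in DMSO cells (difference 0.46 ± 0.17, limma adjusted p = 0.0763). LARS2, for leucine, read 7.51 and 7.5 in CU27 cells, against 7.94 and 7.78 in DMSO cells (difference -0.36 ± 0.14, limma adjusted p = 0.102). Its groups did not overlap, and neither did those of RARS2. AARS2, CARS2, EARS2, FARS2, IARS2, PARS2, SARS2, TARS2, VARS2, WARS2 and YARS2 lay between -0.23 for PARS2 and 0.09 for AARS2, each no farther from 0 than 2 standard errors of its difference.

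HARS1 and HARS2 encode the cytosolic and the mitochondrial histidine enzyme and are transcribed away from each other, so their promoters share sequence. The 84 bases between the RefSeq start sites are printed for that reason, on the plus strand.
HARS1 to HARS2, chr5:140691371-140691454, plus strand: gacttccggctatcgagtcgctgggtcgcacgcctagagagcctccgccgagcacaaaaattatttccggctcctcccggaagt

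HARS1 read 7.58 and 8.50 in CU27 cells and 7.94 and 8.45 in DMSO cells (difference -0.15 ± 0.29, limma adjusted p = 0.753). HARS2 read 6.97 and 7.84 in CU27 cells and 6.85 and 6.86 in DMSO cells (difference 0.55 ± 0.26, limma adjusted p = 0.159). In both genes CU27 replicate 2 was above CU27 replicate 1 by more than either gene's groups differed. The HARS2 value rested on that array, being 0.98 (limma adjusted p = 0.0125) without CU27 replicate 1 and 0.12 (limma adjusted p = 0.754) without CU27 replicate 2.

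Set side by side by amino acid, 15 pairs of a cytosolic and a mitochondrial enzyme could be formed, with FARS2 paired to FARSA and to FARSB. The CU27 difference was lower for the cytosolic enzyme in 11 pairs and higher in 3, with a median of -0.39 for cytosolic minus mitochondrial. The remaining pair, FARSA and FARS2, was equal to 2 decimals, at -0.15 for both. The widest gaps were at serine (-0.84 for SARS1, -0.00 for SARS2), isoleucine (-0.93 for IARS1, -0.20 for IARS2) and histidine. Methionine, asparagine and cysteine ran the other way, with MARS1 at -0.75 and MARS2 at -1.19. These are differences between probe sets of different genes and were not tested.

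**Figure D2:**
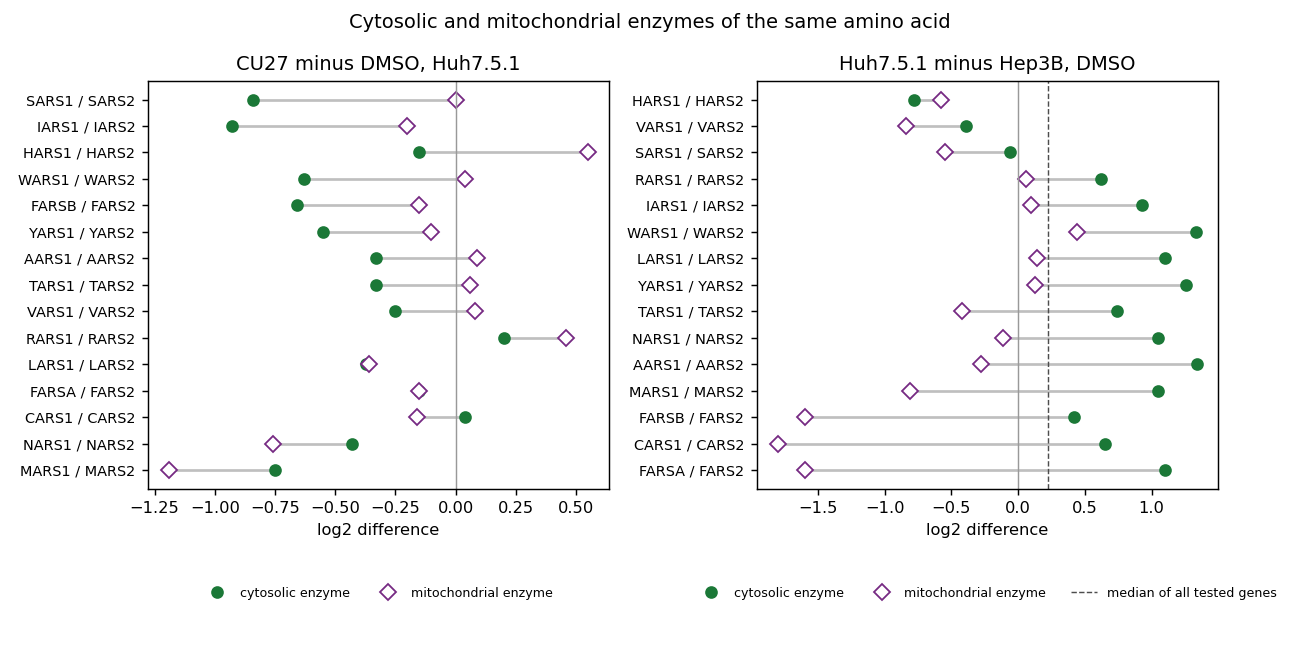
Log2 difference (x axis) of the cytosolic enzyme (filled circles) and the mitochondrial enzyme (open diamonds) for the same amino acid, with CU27 minus DMSO in Huh7.5.1 on the left and Huh7.5.1 minus Hep3B in DMSO on the right, where the dashed line is the median of all tested genes at 0.22. The cytosolic point lies to the left in 11 of 15 pairs on the left panel and to the right in 14 of 15 pairs on the right panel.

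Probe sets of the same gene gave similar CU27 differences. Of the 88 probe sets, 80 lay above the floor in at least 1 group. Opposite signs among them occurred in KARS1 (-0.01 and 0.03), TARS2 (-0.06 and 0.06) and WARS2 (-0.17 to 0.04), all close to 0. Every probe set above the floor was below 0 in each of the 12 genes that fell.

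**Figure D3:**
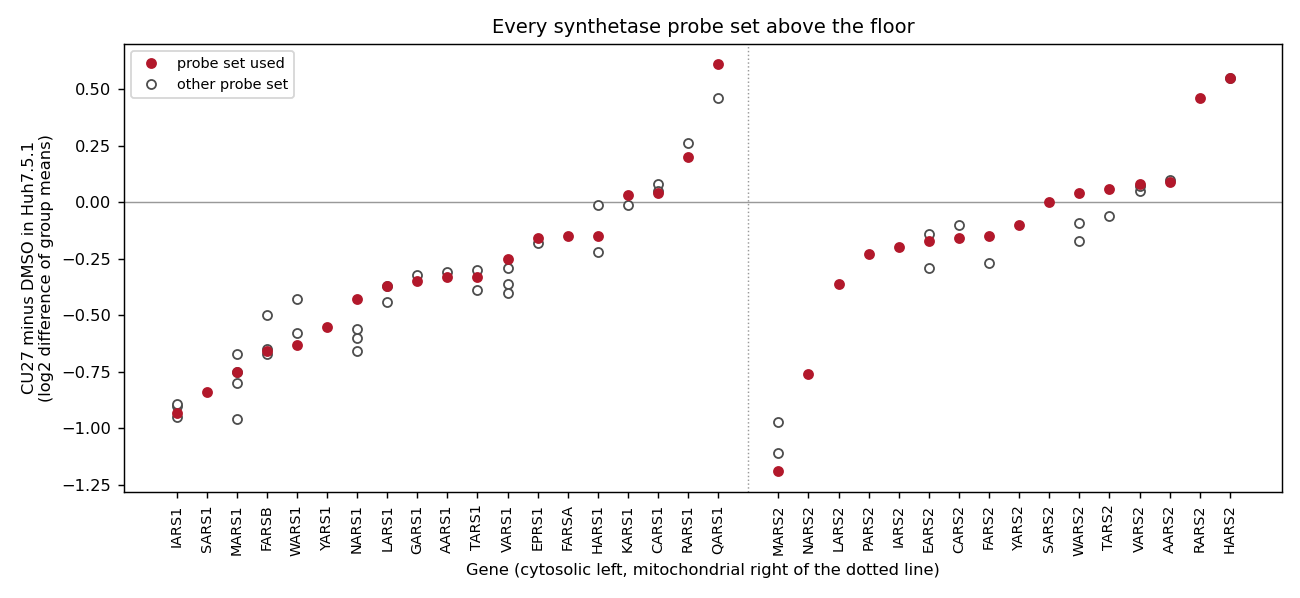
CU27 minus DMSO in Huh7.5.1 (y axis, log2 difference of group means) for each probe set above the floor, by gene; filled points are the probe sets used for the gene and open points the other probe sets. Points of a gene lie close together, from -0.95 to -0.89 for the 4 probe sets of IARS1 and from -1.19 to -0.97 for the 3 of MARS2.

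Partners of the synthetases and the factors that use charged tRNA moved in part. Of 9 partners and related enzymes, 6 had a probe set. Of these 3 fell and 0 rose (median -0.53), against 12.1% lower and 12.6% higher of all genes tested. SEPSECS, which makes the selenocysteine on its tRNA, read 8.17 and 8.32 in CU27 cells, against 9.36 and 9.62 in DMSO cells (difference -1.24 ± 0.17, limma adjusted p = 0.00204). DTD1, a deacylase that clears D-amino acids from tRNA, and SEPHS2, which makes the selenium donor, also fell, with differences of -1.01 ± 0.15 and -0.81 ± 0.15. PSTK, the kinase of the same selenocysteine route, did not pass (difference -0.07 ± 0.17).

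Of 12 measured factors of mitochondrial tRNA charging and translation, 3 fell and 0 rose, against 12.1% lower and 12.6% higher of all genes tested. Their median was -0.33. The elongation factor GFM1 read 8.83 and 8.77 in CU27 cells, against 9.45 and 9.81 in DMSO cells (difference -0.84 ± 0.15, limma adjusted p = 0.00592). MTFMT, which formylates the initiator methionyl-tRNA charged by MARS2, read 7.43 and 7.47 in CU27 cells, against 8.11 and 8.20 in DMSO cells (difference -0.70 ± 0.15, limma adjusted p = 0.00970). The ribosome recycling factor MRRF also fell (difference -0.70 ± 0.18). The amidotransferase subunits GATB, GATC and QRSL1 did not pass.

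Of 8 cytosolic elongation factors, EEF1D and EEF2 rose, EIF5A fell and the median was 0.06, against 12.6% higher and 12.1% lower of all genes tested. EEF1D, a nucleotide exchange subunit, read 11.98 and 12.08 in CU27 cells, against 11.69 and 11.55 in DMSO cells (difference 0.41 ± 0.09, limma adjusted p = 0.0138). EEF1A1, the factor that carries charged tRNA to the ribosome, read 14.03 and 13.92 in CU27 cells and 13.93 and 13.93 in DMSO cells and did not pass (difference 0.04 ± 0.06).

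Other measures moved with CU27 too. Of 8 hepatocyte markers 3 fell and 0 rose, against 12.1% lower and 12.6% higher of all genes tested. Those that fell were APOB, SERPINA1 and TTR, with differences of -1.28 ± 0.15, -0.66 ± 0.08 and -0.94 ± 0.15. The lysosomal glycoprotein CD68, listed as a leukocyte marker, rose (8.86 and 9.34 in CU27 cells, 7.04 and 6.67 in DMSO cells), CD14 lay below the floor in both, and the leukocyte markers PTPRC and CD3E did so in all groups. The part of these shifts in the synthetase results was not tested.

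The number of synthetases called with CU27 depended on single arrays. The 10 cytosolic falls became 2 when DMSO replicate 2 was left out. They became 5 when DMSO replicate 1 was left out, and 6 when this was done with CU27 replicate 2. Leaving out each of these arrays also lowered the number of all genes called, so the loss of calls was not confined to the synthetases. Of the 13 members called, 0 turned sign under the alternatives tried. IARS1, SARS1 and MARS2 were the 3 that passed under every alternative.

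In DMSO, Huh7.5.1 cells had higher signals than Hep3B cells for most cytosolic synthetases and lower signals for many mitochondrial ones. On the deposited scale 15 of 19 cytosolic genes were higher and 1 was lower, against 1 higher and 7 lower of 16 mitochondrial genes (limma, adjusted p threshold 0.05). Of all genes tested 64.0% were called on that scale, 41.0% higher and 22.9% lower. Both Huh7.5.1 arrays lay above both Hep3B arrays for 15 cytosolic and 4 mitochondrial genes, against 52.9% of all genes tested, and below for 2 and 9, against 31.9%. Groups that did not overlap were found for 84.8% of all genes. The median difference, Huh7.5.1 minus Hep3B, was 0.93 over the cytosolic genes, -0.35 over the mitochondrial genes and 0.22 over all genes tested.

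That median of 0.22 is a shift between the lines, and no source used here gives how their arrays were scaled to each other. With each array centred on its median, the median of all genes was -0.22, 64.0% of genes were called, 23.2% higher and 40.8% lower, and by quantile normalization the median was -0.10. The centred arrays gave 11 cytosolic genes higher and 4 lower, and 1 mitochondrial gene higher and 11 lower. The sign turned between these scalings for GARS1, IARS2, LARS2, RARS2 and YARS2, and it was the same in each for the other members. Differences are given as deposited unless stated to be relative to the shift.

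**Figure D4:**
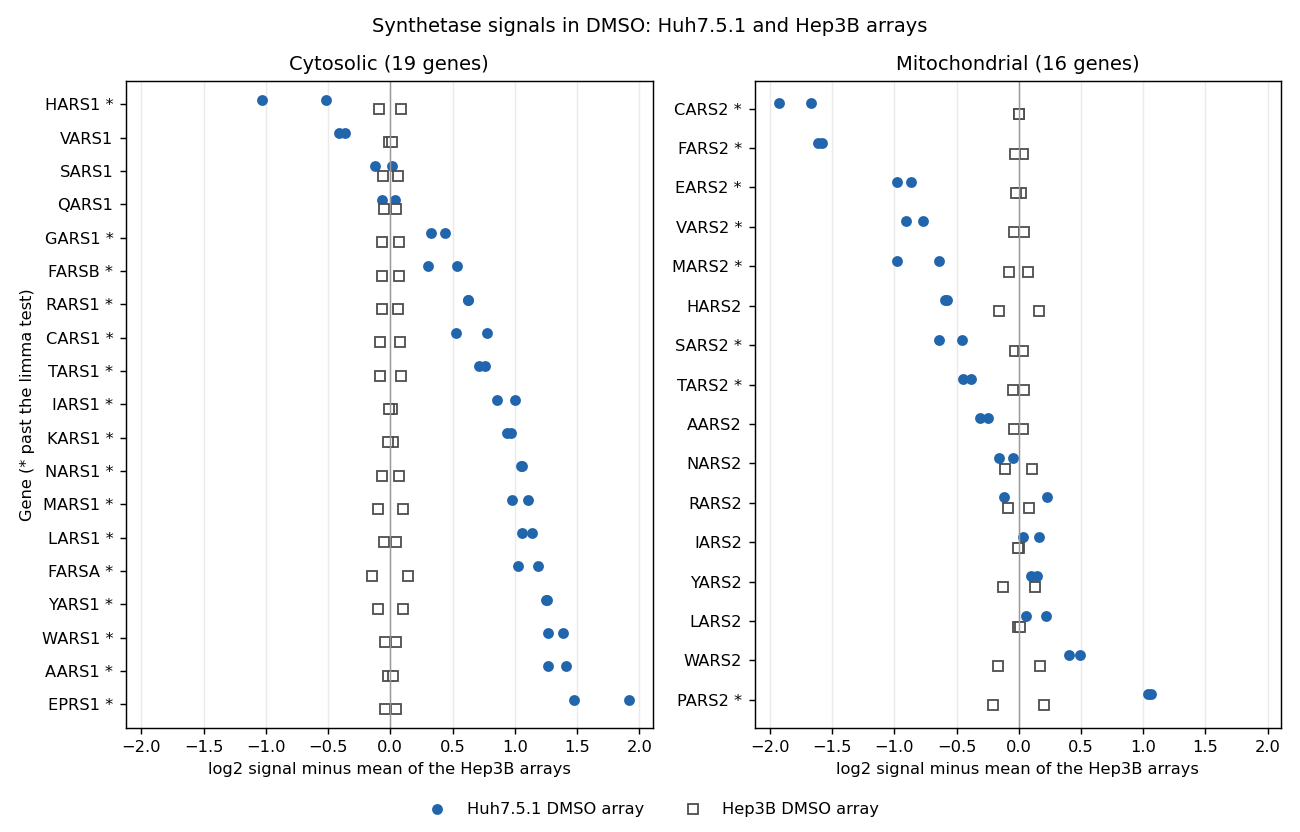
Log2 signal of each DMSO array minus the mean of the 2 Hep3B arrays (x axis, log2 units, deposited scale) for each cytosolic (left) and mitochondrial (right) synthetase gene; filled circles are Huh7.5.1 arrays, open squares are Hep3B arrays, and a star marks genes past the limma test. Most cytosolic genes lie to the right of 0, up to EPRS1, while CARS2, FARS2, EARS2, VARS2 and MARS2 lie well to the left.

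By the probe sets used, EPRS1 had the largest cytosolic difference, but the order depended on the probe set. EPRS1 read 11.52 and 11.08 in Huh7.5.1 cells, against 9.65 and 9.56 in Hep3B cells (difference 1.69 ± 0.17, or 1.47 relative to the shift, limma adjusted p = 4.23e-05). Its other probe set gave 0.70, and the mean of its probe sets 1.19. AARS1 read 10.94 and 11.08 in Huh7.5.1 cells, against 9.65 and 9.69 in Hep3B cells (difference 1.34 ± 0.11, limma adjusted p = 1.42e-05). Its other probe set gave 1.91, and by the mean of all probe sets AARS1 came first, with 1.62. In the probe sets used, neither gene's groups came near to overlapping. The other probe set of EPRS1 had closer groups, with 10.70 and 10.83 in Huh7.5.1 cells against 10.31 and 9.83 in Hep3B cells.

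WARS1 and YARS1 were also more than 2-fold higher in Huh7.5.1 cells. WARS1 read 9.99 and 10.11 in Huh7.5.1 cells, against 8.77 and 8.68 in Hep3B cells (difference 1.33 ± 0.13, limma adjusted p = 3.61e-05). YARS1 read 10.96 and 10.95 in Huh7.5.1 cells, against 9.80 and 9.60 in Hep3B cells (difference 1.26 ± 0.12, limma adjusted p = 2.76e-05). FARSA, LARS1, NARS1, MARS1, KARS1 and IARS1 followed, with differences from 0.93 for IARS1 to 1.10 for FARSA and LARS1. All of these were past the test on the centred arrays as well.

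TARS1 (difference 0.74 ± 0.10), CARS1 (0.65 ± 0.17), RARS1 (0.62 ± 0.12), FARSB (0.42 ± 0.14) and GARS1 (0.39 ± 0.09) were higher in Huh7.5.1 cells on the deposited scale. On the centred arrays TARS1 passed (limma adjusted p = 0.0183), and the other 4 did not. The calls of CARS1, FARSB and GARS1 were also lost by quantile normalization. Those of CARS1 and FARSB were lost when certain single DMSO arrays were left out as well. SARS1, QARS1 and VARS1 did not pass, with differences of -0.06 ± 0.13, -0.01 ± 0.12 and -0.39 ± 0.16, but all 3 were lower on the centred arrays. SARS1 read 10.53 and 10.66 in Huh7.5.1 cells and 10.71 and 10.59 in Hep3B cells. HARS1 was the cytosolic gene that was lower, with 7.94 and 8.45 in Huh7.5.1 cells against 9.06 and 8.88 in Hep3B cells (difference -0.78 ± 0.29, limma adjusted p = 0.0388), a call lost without Huh7.5.1 DMSO replicate 1 or without either Hep3B array.

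The mitochondrial enzymes for cysteine and phenylalanine had the largest differences of that set. CARS2 read 7.38 and 7.12 in Huh7.5.1 cells, against 9.05 and 9.05 in Hep3B cells (difference -1.80 ± 0.17, or -2.02 relative to the shift, limma adjusted p = 2.49e-05). FARS2 read 6.90 and 6.87 in Huh7.5.1 cells, against 8.51 and 8.45 in Hep3B cells (difference -1.60 ± 0.15, limma adjusted p = 2.26e-05). Both were more than 3-fold lower in Huh7.5.1 cells, and their other probe sets above the floor gave -1.38 and -1.19.

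EARS2, for glutamate, read 7.5 and 7.39 in Huh7.5.1 cells, against 8.39 and 8.35 in Hep3B cells (difference -0.93 ± 0.14, limma adjusted p = 0.000489). VARS2 (valine), MARS2, SARS2 (serine) and TARS2 (threonine) were lower as well, with differences of -0.84 ± 0.15, -0.81 ± 0.17, -0.55 ± 0.15 and -0.42 ± 0.15. The calls of VARS2, MARS2 and TARS2 were lost by the mean of all probe sets. The TARS2 call was also lost without any single DMSO array, and the SARS2 call without Huh7.5.1 DMSO replicate 1. PARS2, the proline enzyme, was the exception among mitochondrial genes, with 7.99 and 7.96 in Huh7.5.1 cells against 7.13 and 6.72 in Hep3B cells (difference 1.05 ± 0.18, limma adjusted p = 0.000981). For glutamate and proline the cytosolic counterpart is the same gene, EPRS1, which was higher in Huh7.5.1 cells, so EARS2 and PARS2 lay on opposite sides of 0 beside a single cytosolic partner. The other 8 mitochondrial genes did not pass as deposited, from -0.58 ± 0.26 for HARS2 to 0.44 ± 0.18 for WARS2. Of these AARS2, HARS2, IARS2 and NARS2 were lower on the centred arrays, where WARS2 had 0.03 (limma adjusted p = 0.908).

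For 14 of the 15 amino acid pairs the difference between lines was higher for the cytosolic enzyme, with a median gap of 1.13 for cytosolic minus mitochondrial. A shift common to all genes of an array cancels in this gap, while a shift that differs between genes does not. Quantile normalization, for example, moved AARS1 from 1.34 to 1.13 and AARS2 from -0.28 to -0.66. The part of signal level or RNA integrity in the gap was not tested. Histidine was the pair that ran the other way, with HARS1 at -0.78 and HARS2 at -0.58. The gap was widest for phenylalanine, with FARSA at 1.10 and FARS2 at -1.60, and for cysteine, with CARS1 at 0.65 and CARS2 at -1.80.

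Probe sets of a gene agreed less well between lines than with CU27. QARS1 gave -0.01 and 1.41, VARS1 from -0.39 to 1.49, TARS2 -0.42 and 0.83, and MARS2 from -0.81 to 0.29. MARS1 ranged from 0.51 to 2.40 over its 5 probe sets. The ACTB 3′ to 5′ difference was larger in both Hep3B arrays than in any Huh7.5.1 array, as given above, and its part in these differences was not tested. All 4 probe sets of IARS1, by contrast, lay from 0.86 to 0.93.

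The comparisons of CU27 with DMSO and of Huh7.5.1 with Hep3B share the Huh7.5.1 DMSO arrays, so their values are given side by side only. IARS1 had -0.93 with CU27 and 0.93 between lines, MARS1 had -0.75 and 1.05, and WARS1 had -0.63 and 1.33. SARS1 and NARS2, by contrast, had falls with CU27 and between-line differences of -0.06 and -0.11 that did not pass. Because these arrays enter with opposite signs, no relation between the columns is drawn from this.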

How the data were processed

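Biotin-labelled RNA from 3′ amplification was read on Affymetrix arrays, per the labels' protocols. The deposited values were taken as log2 signals from their range, and MAS5 is named, without a version, in the submitters' processing notes. The scaling, any centring and the direction of any adjustment between lines stay unknown. The column medians were 6.26 and 6.25 (Huh7.5.1 CU27), 6.27 and 6.23 (Huh7.5.1 DMSO) and 5.85 and 5.82 (Hep3B DMSO). Of 49395 probe sets, 102 controls were left out, 44988 had 1 gene symbol, 1832 several and 2473 none. Each gene took the values of the probe set whose mean was highest, and was tested if a group mean reached the floor, which left 11383 genes. All 6 arrays entered 1 fit in limma 3.58.1 under R 4.3.3, by eBayes with an intensity trend, with 3 residual and 5.87 prior degrees of freedom. Adjusted p-values are two-sided and use the Benjamini-Hochberg method over every gene tested. Errors are standard errors. The number of arrays limits the precision. Exact permutation tests were not used, since 2 arrays a group cannot pass the threshold. Alternatives covered scaling, probe set choice, floor, trend, array subsets and a replicate block. The procedure was tested on simulated data.

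Members and gene lists were chosen with earlier results of these data known, and the ATF4 target list rests on general knowledge. Every member is named. Of each other list the named genes are ATF4, ASNS and EIF2AK4 and at most 4 that passed, by smallest p, of which some are given by count only. ALB, AIMP1, PSTK, EEF1A1, DDIT3, the amidotransferase subunits and the markers below the floor were named after their values were seen. Counts are described beside those of all genes, with no set test. No scanner files were analysed here.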

Additional observations from a re-analysis of the deposited data

How the results depend on the processing

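With CU27, leaving out single arrays gave 900 to 2923 genes called, 4 to 13 synthetases, 2 to 8 cytosolic falls, 0 to 1 cytosolic rise, 1 to 2 mitochondrial falls and 0 to 2 mitochondrial rises. Without the intensity trend 6 cytosolic genes fell. Of the 13 called members 3 kept their call under every alternative, and 20 of the 22 others passed under none. Same-numbered Huh7.5.1 arrays share only a number, and with 2 pairs their deviations correlated at 0.263 over probe sets. With the replicate block 3182 genes and 14 synthetases were called, including 1 mitochondrial rise, RARS2. Between lines the groups share only replicate number 2, and no paired analysis was possible because fewer than 2 numbers are shared. There, leaving out single arrays gave 0 to 2 cytosolic genes lower and 1 to 2 mitochondrial genes higher in Huh7.5.1. Centring the arrays gave 4 cytosolic and 11 mitochondrial genes lower, and turned GARS1 to -0.03 and IARS2 to -0.32. Quantile normalization gave 2 cytosolic genes lower. The mean of all probe sets gave 4 mitochondrial genes lower and 2 higher, and turned QARS1 to 0.70, VARS1 to 0.78 and TARS2 to 0.21. Of the 24 members called between lines 15 kept their call under every alternative run, and of the 11 others 3 passed under none. The causes were not tested.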

Other observations

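Genes around the synthetases also differed between the lines in DMSO. Of the selenocysteine route, SEPSECS read 9.36 and 9.62 in Huh7.5.1 cells, against 7.79 and 7.45 in Hep3B cells, while SEPHS2 read 10.67 and 10.94 in Huh7.5.1 cells, against 11.62 and 11.95 in Hep3B cells. Their differences of 1.87 ± 0.17 and -0.98 ± 0.15 passed the test (limma adjusted p = 2.19e-05 and 0.000471) and lay on opposite sides of 0. Of the 6 measured partners, 4 were higher in Huh7.5.1 cells and 1 was lower, against 41.0% and 22.9% of all genes tested. Among them were DTD1 at 1.51 ± 0.15 and PSTK at 0.90 ± 0.17. On the centred arrays 3 of the 6 were higher and 1 was lower, against 23.2% and 40.8% of all genes tested. SEPSECS, DTD1, PSTK and SEPHS2 passed there, while AIMP1, at 0.44 as deposited, had 0.02.

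The counts of the other lists moved with the scaling. Of all genes tested 41.0% were higher and 22.9% lower in Huh7.5.1 as deposited, and 23.2% higher and 40.8% lower on the centred arrays. Of 12 measured factors of mitochondrial charging and translation, 5 were higher in Huh7.5.1 cells and 2 lower as deposited, while on the centred arrays 2 of the 11 tested were higher and 4 lower. The initiation factor MTIF2 read 10.09 and 10.09 in Huh7.5.1 cells, against 8.86 and 8.74 in Hep3B cells (difference 1.29 ± 0.12), and the elongation factor TUFM read 10.93 and 11.03 in Huh7.5.1 cells, against 11.67 and 11.47 in Hep3B cells (difference -0.59 ± 0.12). MRRF and GFM1 had differences of 0.97 ± 0.18 and -0.57 ± 0.15, and all 4 genes passed on the centred arrays. Of 8 cytosolic elongation factors, 1 was higher and 4 were lower in Huh7.5.1 cells as deposited, against 0 higher and 6 lower on the centred arrays. Of 9 amino acid stress genes, 6 were higher and 1 lower as deposited, against 4 higher and 2 lower on the centred arrays. ASNS was at 13.19 and 13.43 in Huh7.5.1 cells, against 11.81 and 11.43 in Hep3B cells (difference 1.69 ± 0.14, limma adjusted p = 1.25e-05), and SESN2 at 10.40 and 10.79, against 8.27 and 8.07 in Hep3B cells. EIF2AK4 was lower on both scales (difference -0.61 ± 0.15 as deposited). ASNS and SESN2 were higher on both.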
